A study of Mus with 3 samples.

Results

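Granzyme-high CD8 T cells are tumor-infiltrating CD8 T cells that carry transcripts of the granzymes C, D, E and F. They were selected on counts of unique molecular identifiers (UMIs, each a captured transcript). A granzyme-high cell was a barcode with 500 or more gene UMIs, a T cell receptor (TCR) clonotype, 1 or more Cd8a UMIs, no Cd4 UMI, under 5 UMIs of the proliferation genes Mki67, Top2a, Birc5 and Pclaf together, and 5 or more UMIs of Gzmc, Gzmd, Gzme and Gzmf together. The rule found 247 cells among 5600 barcodes, of which 150 were WT, 70 RARα-KO and 6 RARα-TG by hashtag, and 21 had no clear hashtag. They were compared with 1617 other non-cycling CD8 T cells, chosen by the same rule but with under 5 granzyme UMIs: 566 WT, 884 RARα-KO and 87 RARα-TG. All cells came from MC38 colon carcinoma tumors, taken 16 days after injection into mice of 3 genotypes, sorted as CD45.2+ CD3+ T cells and as total cells, marked with one hashtag antibody per genotype and pooled into 1 library. RARα-KO mice carry dLck-Cre and a floxed Rara, so that the retinoic acid receptor α is removed in T cells. RARα-TG mice overexpress Rara in T cells from a CD2 transgene. WT controls were C57BL/6 or dLck-Cre mice, and which of these gave the WT tumor, the age and sex of the mice with these tumors and the number of mice per genotype are not given in the sources used here. Mice in the study as a whole were mostly young adults, for the larger part male.

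Granzymes are serine proteases stored in the granules of cytotoxic lymphocytes. Perforin, released from the same granules, opens the way into the target cell, where granzyme B starts apoptosis. Granzymes C, D, E, F and G are rodent relatives of granzyme B that appear late in strongly activated cytotoxic T cells and in NK cells, and much less is known of their substrates. Serpins such as those of the Serpinb9 family protect the killer cell from its own granzymes.

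Each genotype is 1 sample, so no value below has a replicate, and genotype, tumor and mouse cannot be told apart. All intervals are 95% intervals that cover counting error only: exact Clopper-Pearson intervals for shares, exact Poisson intervals for levels and exact binomial intervals for ratios. UMIs of a gene are often gathered in few cells, which makes the true error of a level wider than its interval. Levels (CPM) are the UMIs of a gene summed over the cells of a group and scaled to 1000000 gene UMIs of that group, and ratios are log2 ratios of CPM. Granzyme-high cells were deeper than the other CD8 cells. Their median was 8658 UMIs against 4931.5 in WT, and 7692 against 4980 in RARα-KO. The share of cells over a fixed UMI gate rises with depth, so for several genes the shares after thinning each cell to 2000 UMIs are given as well. The shares for Klra5 and for cells with all 4 granzymes were not thinned.

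The gate divided a distribution in which most cells stood at 0. No UMI of the 4 granzymes was found in 66.6% of WT non-cycling CD8 cells, and for RARα-KO and RARα-TG this share was 81.7% and 83.9%. Just outside the gate, 14 WT and 10 RARα-KO cells had 4 UMIs, and just inside it 6 and 9 had 5 UMIs. The granzyme-high cells had a median sum of 45 (WT), 23 (RARα-KO) and 8 UMIs (RARα-TG), with highest values of 1202, 1105 and 341. At least 100 UMIs were found in 45 WT, 19 RARα-KO and 1 RARα-TG cells. Granzyme-high cells therefore held 98.97% of these UMIs among WT non-cycling CD8 cells, and 97.6% and 96.7% among those of RARα-KO and RARα-TG. These values follow from the choice of the cells and are a description of it.

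WT tumors had the largest share of granzyme-high cells among the 3 samples. Of 716 WT non-cycling CD8 T cells, 150 were granzyme-high (20.9%, 18.0% to 24.1%). The same count was 70 of 954 for RARα-KO (7.34%, 5.76% to 9.18%) and 6 of 93 for RARα-TG (6.45%, 2.40% to 13.5%). The WT share was 2.86 times that of RARα-KO (2.14 to 3.85). The intervals of RARα-KO and RARα-TG overlapped. With gates of 3, 10 and 20 UMIs the WT share stayed above the other 2 (24.7%, 18.4% and 15.4% in WT against 9.85%, 5.35% and 4.19% in RARα-KO). Thinned to 2000 UMIs per cell, the 3 genotypes stood at 15.7%, 4.83% and 1.11%. With each clonotype of a genotype weighted equally, the WT share was 11.7% and the ratio of WT to RARα-KO 1.81. The hashtag of WT stood out less from the next one than that of RARα-KO (median ratio of 8.73 against 23.7 in granzyme-high cells). A stricter rule, with 20 hashtag UMIs and 10 times the next, left 52 granzyme-high and 118 other WT cells and a WT share of 30.6%.

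**Figure D1:**
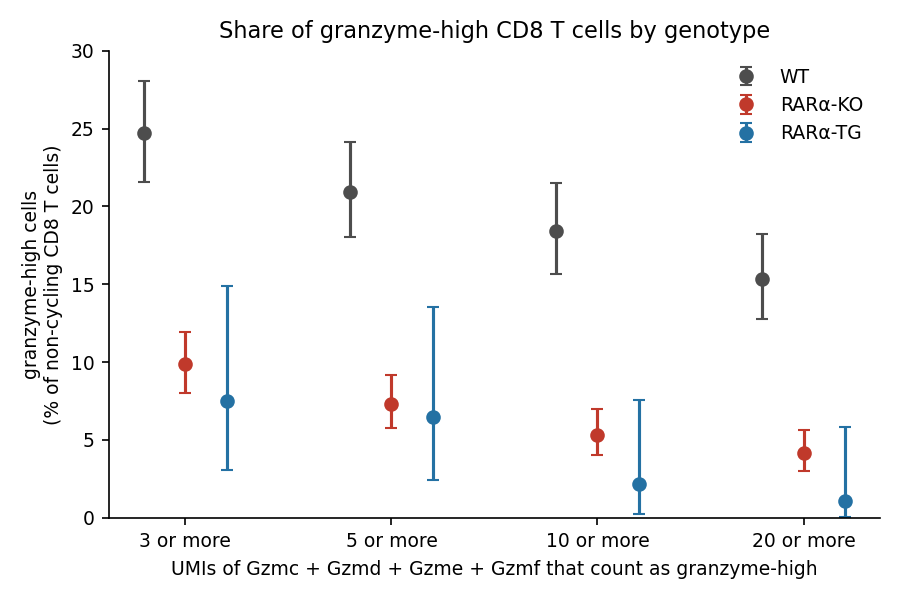
The vertical axis gives granzyme-high cells in percent of non-cycling CD8 T cells, and the horizontal axis 4 gates on the summed UMIs of Gzmc, Gzmd, Gzme and Gzmf. Points are 1 sample per genotype with 95% Clopper-Pearson intervals, and the WT points lie above those of RARα-KO at every gate shown, at 20.9% against 7.34% for 5 or more UMIs.

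Cycling CD8 cells, which the rule leaves out, carried the 4 granzymes as well. Of 76 WT cycling CD8 cells, 42 had 5 or more granzyme UMIs (55.3%, 43.4% to 66.7%). Of 85 from RARα-KO, 17 did (20%, 12.1% to 30.1%), and of 8 from RARα-TG, 4 did. Their depth was higher than that of the non-cycling cells, with medians of 13487 UMIs in WT and 15964 in RARα-KO, so their shares cannot be set beside those of non-cycling cells.

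The 4 genes of the rule lie in a granzyme cluster on chromosome 14 (GRCm38, 56117619 to 56262334), a stretch of 145 kb in which RefSeq places 7 granzyme genes in the order Gzme, Gzmd, Gzmg, Gzmn, Gzmf, Gzmc and Gzmb. These genes arose by duplication and are alike in sequence, so reads may have been split between Gzmd, Gzme, Gzmf and Gzmg by the counting, and the split among them is uncertain. Gzmf (ENSMUSG00000015441, 56205263 to 56211407) gave most of the sum in both WT and RARα-KO, at 63.0% and 64.2% of it. Gzmf led in 98 of 150 WT cells, Gzmc in 22, Gzme in 18 and Gzmd in 12. In RARα-KO Gzmf led in 34 of 70 cells and Gzmc in 27. All 4 genes were found in 29.3% of WT granzyme-high cells (44 of 150, 22.2% to 37.3%) and 14.3% of RARα-KO cells (10 of 70, 7.07% to 24.7%), and the intervals overlapped. The sum reached 1.22% of all gene UMIs of the WT cells and 1.19% of those of RARα-KO.

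Levels of the 4 genes by genotype describe the gate and the cells above it. Gzmf stood at 7658 CPM in WT and 7625 CPM in RARα-KO granzyme-high cells, against 19.3 and 9.17 CPM in the other CD8 cells. Gzmc stood at 1819.8 CPM in WT and 1778 CPM in RARα-KO. Gzmd was at 1355 and 1632 CPM, and Gzme at 1317 and 844 CPM. The summed levels of Gzmf and Gzmc were close, but the share of cells with Gzmf was not. Gzmf was detected in 83.3% of WT and 61.4% of RARα-KO granzyme-high cells, and 1 RARα-KO cell held 18.3% of its UMIs there. Single cells ranged from 0 to 61330.3 CPM of Gzmf in WT, with a median of 3478 CPM, and from 0 to 53368 CPM in RARα-KO, with a median of 874 CPM.

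The 6 RARα-TG cells that met the rule did not carry this pattern. Gzmc gave 97.7% of their granzyme sum, and 340 of their 374 Gzmc UMIs were in 1 cell, which had 32 Fcer1g UMIs and no Gzmb UMI. Gzmd, Gzme and Gzmf had 2, 3 and 4 UMIs over all 6 cells. Prf1, the gene of perforin, had no UMI in them, an upper limit of 91.2 CPM against 105 CPM in the other RARα-TG cells. Gldc had no UMI in these 6 cells or in the other RARα-TG CD8 cells. Tcf7, a transcription factor of naive and memory T cells, was found in 4 of the 6 cells, against 4 of 150 WT and 0 of 70 RARα-KO granzyme-high cells. It was also found in 42 of the other RARα-TG CD8 cells (48.3%), at 212 CPM against 173 CPM in the 6 cells. Tcf7 was thus not particular to these 6 cells within RARα-TG. These RARα-TG cells are therefore named here by the rule alone and enter no comparison of genes.

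The 4 marker genes that the rule did not use were picked with earlier results of these data known, so their levels are a description. By level, 3 of them were higher in granzyme-high cells of both WT and RARα-KO. Prf1 (chromosome 10, 61297751 to 61304684) stood at 614 CPM in WT granzyme-high and 225 CPM in WT other CD8 cells, and at 1061 and 522 CPM in RARα-KO. The log2 ratios were 1.45 (1.30 to 1.60) and 1.02 (0.90 to 1.15). Nrgn, which encodes the calmodulin-binding protein neurogranin, was at 372 against 207 CPM in WT and 111 against 22.0 CPM in RARα-KO, with ratios of 0.84 (0.67 to 1.02) and 2.33 (1.88 to 2.78). Nrgn was lower in RARα-KO than in WT in both kinds of cells. Gldc, the glycine decarboxylase of the mitochondrial glycine cleavage system, was at 68.5 against 27.5 CPM in WT and 53.2 against 12.5 CPM in RARα-KO, with ratios of 1.32 (0.88 to 1.76) and 2.09 (1.44 to 2.72). Styk1, a kinase-like membrane protein found in NK cells, was at 70.0 against 42.5 CPM in WT (0.72, 0.32 to 1.11). In RARα-KO it was at 38.7 against 29.9 CPM, and this ratio did not differ from 0 beyond counting error (0.37, -0.31 to 0.9997).

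For Prf1 and Nrgn the order of the shares of cells with a UMI was the same after thinning. Prf1 was detected in 84.0% of WT granzyme-high and 42.8% of WT other cells, and after thinning in 51.4% (43.0% to 59.7%) and 23.3% (19.8% to 27.0%). In RARα-KO these shares were 80% and 54.0%, and 61.4% and 34.7% after thinning. Nrgn was detected in 69.3% and 26.0% of WT cells, and in 39.7% and 16.5% after thinning. Styk1 was detected in 42.0% and 19.1% of WT cells, and in 15.1% and 7.46% after thinning. In RARα-KO it was detected in 25.7% and 13.0%, but after thinning in 4.29% (0.893% to 12.02%) and 4.30%, so no difference was detectable there. Gldc went from 22.9% and 4.52% of RARα-KO cells to 2.86% (0.348% to 9.94%) and 2.09% after thinning, again within counting error. In WT, Gldc went from 29.3% and 10.4% to 8.22% (4.32% to 13.9%) and 3.91% (2.46% to 5.86%), with intervals that overlapped. Thinning left out 4 granzyme-high and 3 other cells in WT and 0 and 23 cells in RARα-KO.

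The other granzymes differed in direction. Gzmb (56258836 to 56262334) was found in 99.3% of WT and 98.6% of RARα-KO granzyme-high cells, so that nearly every cell with the late granzymes also carried granzyme B. Its level was 4922 CPM in WT granzyme-high against 1785 CPM in WT other cells (1.46, 1.41 to 1.52), and 9609 against 5853 CPM in RARα-KO (0.72, 0.67 to 0.76). Gzmg, which lies between Gzmd and Gzmn, had 90 UMIs in WT granzyme-high and 5 in the far larger group of WT other cells (67.0 against 1.63 CPM, 5.36, 4.08 to 7.01). In RARα-KO it had 286 and 2 UMIs (461 against 0.390 CPM, 10.21, 8.34 to 13.26). One cell held 38.9% of the WT and another 35.3% of the RARα-KO UMIs. Some Gzmg counts may be reads of Gzmd, Gzme or Gzmf, which the rule used. Gzmk, the granzyme of less differentiated CD8 T cells, was lower in granzyme-high cells, at 87.9 against 131 CPM in WT (-0.58, -0.89 to -0.28) and 199.7 against 427 CPM in RARα-KO (-1.10, -1.37 to -0.84). Gzma was at 1613 against 732 CPM in WT, but 27.6% of these UMIs came from 1 cell, and Gzma was detected in 18.0% of granzyme-high and 25.1% of other WT cells. After thinning, Gzma was found in 15.8% and 20.4% of WT cells, and Gzmb in 93.8% and 51.9% of WT and 98.6% and 76.3% of RARα-KO cells. In RARα-KO Gzma was at 1156 against 899.5 CPM. Gzmm was counted 0 times in WT and 2 times in RARα-KO granzyme-high cells, and Gzmn had none in any of these groups.

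Across non-cycling CD8 cells, several genes differed with the size of the granzyme sum. Gzmb went from 1524 CPM in WT cells with no UMI of the 4 genes to 2936 CPM at 1 to 4 UMIs, 4164 CPM at 5 to 9, 4083 CPM at 10 to 99 and 6351 CPM at 100 or more. In RARα-KO the same steps were 5744, 6594, 7381, 8857 and 11769 CPM. Prf1 went from 212 CPM at a sum of 0 to 852 CPM at 100 or more in WT, and from 525 to 1683 CPM in RARα-KO. Mt1, a metallothionein that binds zinc, went from 592 to 2326 CPM and from 802 to 3696 CPM. Tcf7 went the other way. It stood at 74.2 CPM in WT cells without the 4 granzymes, 21.2 CPM at 1 to 4 UMIs and 4.07 CPM at 100 or more, and no Tcf7 UMI was found in the RARα-KO cells above the gate. Ccl5, a chemokine of effector and memory CD8 cells, was lower at each step in WT, from 5483 to 2015 CPM. In RARα-KO Ccl5 had no such order, with 3411 CPM at 5 to 9 UMIs, 11034 CPM at 10 to 99 and 2859 CPM at 100 or more. Median depth moved with the bins, from 4771 UMIs at 0 to 10178 UMIs at 100 or more in WT and from 4957 to 11989 UMIs in RARα-KO, and its part in these values was not tested.

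**Figure D2:**
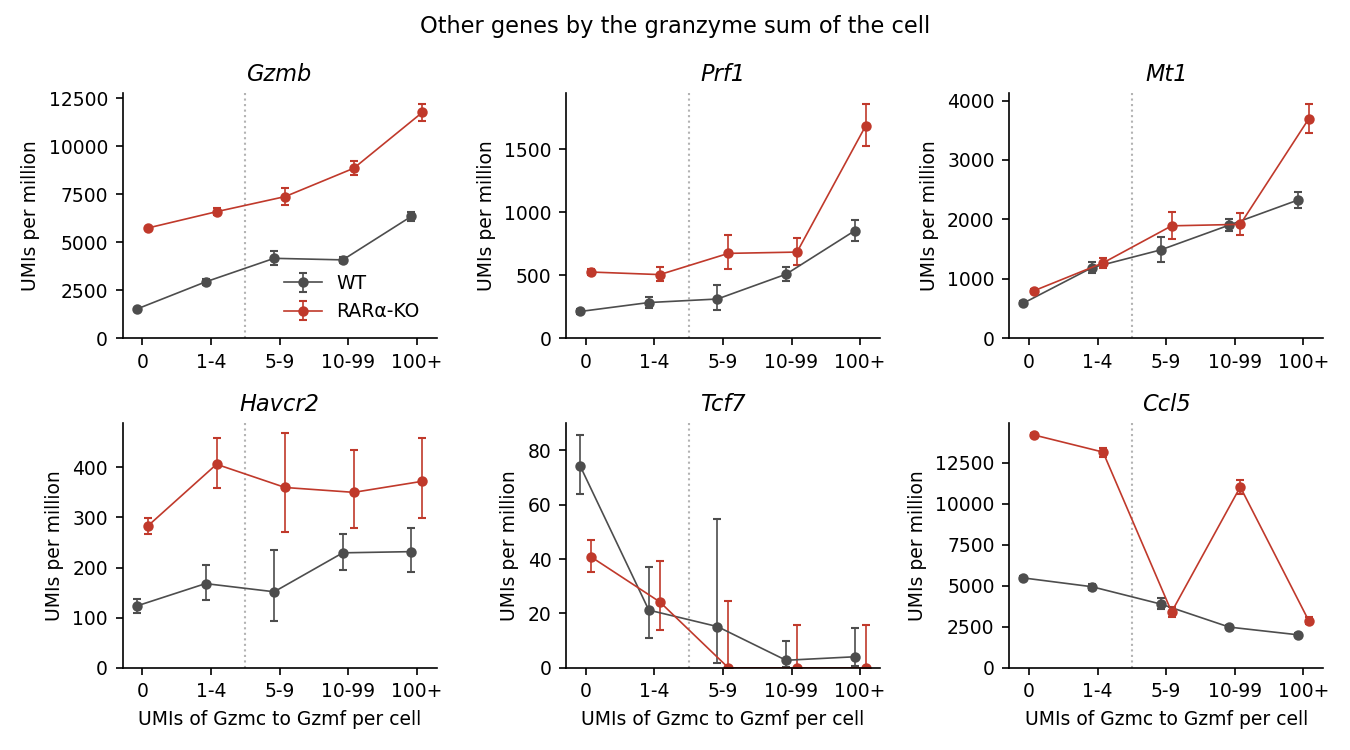
Each panel gives the level of a gene in CPM (vertical axis) in cells grouped by their summed UMIs of Gzmc, Gzmd, Gzme and Gzmf (horizontal axis), for WT and RARα-KO non-cycling CD8 T cells. Bars are 95% Poisson intervals and the dotted line marks the gate of 5 UMIs. Gzmb, Prf1 and Mt1 are highest at 100 or more UMIs, with Gzmb at 6351 in WT and 11769 in RARα-KO, while Tcf7 is at 4.07 in WT and 0 in RARα-KO there.

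The TCR shows from which clones these cells came. Cells that share a receptor form a clonotype, and its size was counted over all cells of a genotype with a TCR. In WT, 73.3% of granzyme-high cells were in clonotypes of 10 or more cells (65.5% to 80.2%) against 56.7% of the other CD8 cells (52.5% to 60.8%), and 6.00% against 19.6% were the only cell of their clonotype. In RARα-KO these shares did not differ between the kinds of cells beyond counting error. There 70.0% of granzyme-high and 71.0% of other cells were in clonotypes of 10 or more, and 8.57% and 9.28% were alone. Of the 6 RARα-TG cells, 5 were the only cell of their clonotype. Under the stricter hashtag rule the 2 WT shares were 34.6% and 15.3%. That rule left 52 granzyme-high and 118 other WT cells, and clonotype size was recounted over the cells it kept. This can only lower the sizes, so these shares cannot be set beside those above.

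Granzyme-high cells were spread over many clonotypes, 50 in WT and 37 in RARα-KO. Of these cells, 94.0% in WT and 91.4% in RARα-KO belonged to a clonotype that also had other non-cycling CD8 cells, and no clonotype of 2 or more such cells was made of granzyme-high cells alone. All 19 WT clonotypes with 10 or more non-cycling CD8 cells had granzyme-high cells, at 4.55% to 54.5% of the clonotype with a median of 23.1%. In RARα-KO 19 of 21 such clonotypes had them, at 0% to 25.9% with a median of 6.67%. Summed over these large clonotypes, the share was 25.2% in WT (107 of 424, 21.2% to 29.7%) and 7.40% in RARα-KO (47 of 635, 5.49% to 9.72%). Among clonotypes of 1 non-cycling CD8 cell, 9 of 125 WT cells (7.20%, 3.35% to 13.2%), 6 of 97 RARα-KO cells (6.19%, 2.30% to 13.0%) and 6 of 82 RARα-TG cells (7.32%, 2.73% to 15.2%) were granzyme-high. The difference between WT and RARα-KO was seen in the large clonotypes and was not detectable in clonotypes of 1 cell at this depth.

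Clonotypes with many granzyme-high cells had different receptors. Shown here for some of them and for the largest clonotype of each genotype, 5′ to 3′, are the coding sequences of the third complementarity-determining region (CDR3) of the beta chain, the part of the receptor that meets the peptide, since they identify the clones in which the granzyme-high cells arose. Capitals mark the bases between the start shared by 80% of the CDR3 sequences with the same V gene and the end shared by 80% of those with the same J gene in this library, which is the part most particular to the clone.
WT clonotype 7, TRBV5 and TRBJ2-5, 17 of 36 cells granzyme-high: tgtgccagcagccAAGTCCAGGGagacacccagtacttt
WT clonotype 10, TRBV3 and TRBJ2-1, 12 of 30 cells: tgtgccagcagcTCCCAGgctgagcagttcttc
WT clonotype 5, TRBV31 and TRBJ1-6, 6 of 58 cells: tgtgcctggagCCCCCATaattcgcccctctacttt
RARα-KO clonotype 9, TRBV16 and TRBJ2-7, 8 of 38 cells: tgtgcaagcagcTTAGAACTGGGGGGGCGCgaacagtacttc
RARα-KO clonotype 14, TRBV5 and TRBJ2-3, 7 of 27 cells: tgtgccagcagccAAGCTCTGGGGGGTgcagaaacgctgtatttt
RARα-KO clonotype 1, TRBV16 and TRBJ1-3, 2 of 98 cells: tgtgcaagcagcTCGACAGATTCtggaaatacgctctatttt
The WT clonotypes 7 and 10 used different V genes and J genes and had granzyme-high shares of 47.2% (30.4% to 64.5%) and 40.0% (22.7% to 59.4%). The largest WT clonotype, number 5, was at 10.3% (3.89% to 21.2%), with an interval below those of clonotypes 7 and 10. The largest RARα-KO clonotype, number 1, was at 2.04% (0.248% to 7.18%), below clonotype 14 at 25.9% (11.1% to 46.3%) and clonotype 9 at 21.1% (9.55% to 37.3%). The share thus differed between clonotypes of 1 genotype beyond counting error, and these pairs were picked after the values had been seen. Since the number of mice per genotype is not given, clonotype and mouse cannot be told apart.

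**Figure D3:**
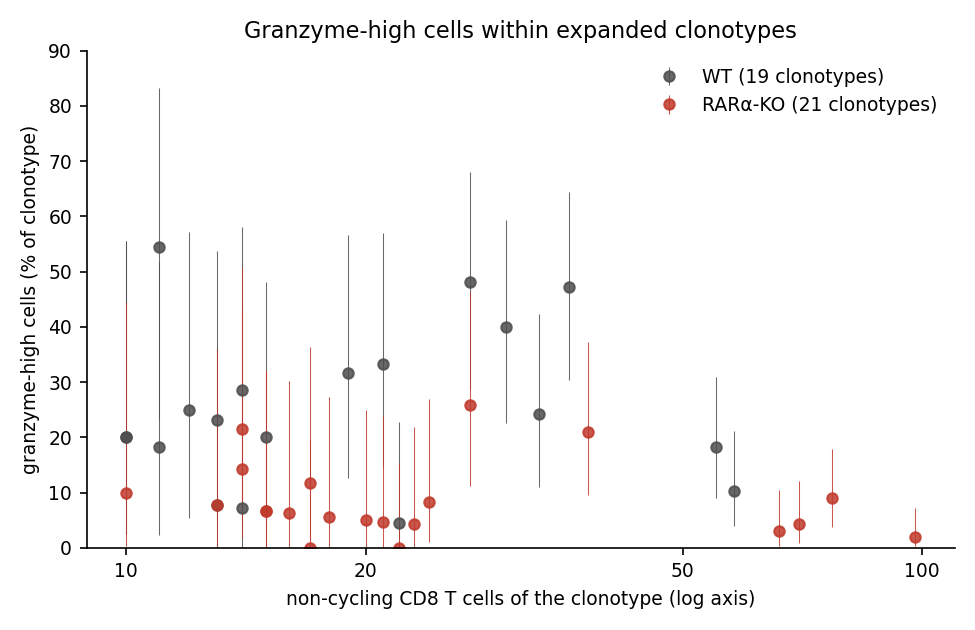
Each point is a clonotype with 10 or more non-cycling CD8 T cells in WT (19 clonotypes) or RARα-KO (21 clonotypes). The horizontal axis gives its number of these cells on a log axis, the vertical axis the percentage that is granzyme-high, and bars are 95% Clopper-Pearson intervals. WT points spread from 4.55% to 54.5%, and RARα-KO points from 0% to 25.9%.

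V gene usage of granzyme-high and other CD8 cells was compared by cells. In RARα-KO, TRBV16 was used by 51.5% of granzyme-high (35 of 68, 39.0% to 63.8%) and 59.3% of other cells (55.9% to 62.6%). In WT it was used by 8.72% and 11.2%. TRBV5 was more frequent in WT granzyme-high cells by cells (22.8%, 16.3% to 30.4%, against 13.9%, 11.1% to 17.1%), and these intervals overlapped. TRBV31 was used by 14.8% (9.49% to 21.5%) against 21.7% (18.3% to 25.4%) and TRBV13-1 by 9.40% (5.23% to 15.3%) against 5.87% (4.05% to 8.19%) of WT cells, with intervals that overlapped too. Counted over clonotypes, TRBV5 was used by 16.0% of 50 WT clonotypes with granzyme-high cells and 11.5% of 174 with other cells.

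Cells of the same clonotype share their receptor, so gene levels were also compared within clonotypes that had 5 or more granzyme-high and 5 or more other cells. There were 9 such clonotypes in WT, with 85 granzyme-high and 205 other cells, and 3 in RARα-KO, with 22 and 120 cells. Gzmb and Prf1 were higher in the granzyme-high cells of all 9 WT and all 3 RARα-KO clonotypes. Summed over the WT clonotypes, the ratio was 1.54 (1.46 to 1.62) for Gzmb and 1.37 (1.15 to 1.59) for Prf1. Summed over those of RARα-KO, it was 1.14 (1.06 to 1.21) and 1.16 (0.94 to 1.39). Mt1 was higher in 8 of 9 WT and all 3 RARα-KO clonotypes, and Ccl5 was lower in 8 of 9 and 2 of 3. Nrgn was higher in 7 of 9 WT clonotypes (0.80, 0.54 to 1.07), and in RARα-KO in 1 of 3 (0.17, -1.66 to 1.72). Genes with the same sign in every WT clonotype in the other direction included Rora, Pim1, Tnfaip3 and Bach2, which were lower in 9 of 9. Ifng differed in sign between the genotypes, higher in 6 of 9 WT clonotypes (1.01, 0.63 to 1.41) and lower in all 3 of RARα-KO, with 4 against 93 UMIs (-2.89, -4.79 to -1.48). Ccl3 and Ccl4 were lower in all 3 RARα-KO clonotypes, with 4 against 99 UMIs (-2.98, -4.88 to -1.57) and 68 against 878 UMIs (-2.04, -2.41 to -1.68).

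Among genes that reached a mean of 0.1 UMIs in granzyme-high or other cells, 131 of 7050 genes in WT were at least 2-fold higher in granzyme-high cells (1.86%) and 181 at least 2-fold lower (2.57%). In RARα-KO 245 of 7083 genes were higher (3.46%) and 316 lower (4.46%). These counts leave out the genes of the gate, and since the cells were chosen on their expression they are a description with no test. The median log2 ratio of all genes was -0.06 in both WT and RARα-KO, and lists below are read against it. Of the higher genes, 34 were shared, which is 26.0% of the WT and 13.9% of the RARα-KO genes. Of the lower genes, 51 were shared (28.2% and 16.1%).

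After Gzmg, the genes highest in granzyme-high cells of both genotypes were Klra5, Filip1, Serpinb9b, Fcrl6, Cd244a, 2900026A02Rik, Adgrg1, Emilin2, Mt2, Ltb4r1 and Mt1. Several are receptors known from NK and late effector cells. Klra5, of the Ly49 family, stood at 43.9 against 3.60 CPM in WT (3.61, 2.67 to 4.69) and 124 against 13.1 CPM in RARα-KO (3.25, 2.75 to 3.74), and was found in 10.7% and 15.7% of granzyme-high cells. In the other RARα-TG CD8 cells, which are below the gate, Klra5 stood at 131 CPM and was found in 19.5% of cells. Klra5 was thus not particular to granzyme-high cells. Adgrg1, the adhesion receptor GPR56, was at 32.0 against 6.54 CPM and 40.3 against 13.3 CPM. Cd244a, the receptor 2B4, was at 27.6 against 8.83 CPM and 35.4 against 4.68 CPM, and Fcrl6 at 29.8 against 8.83 CPM and 33.8 against 5.46 CPM. Ltb4r1, the leukotriene B4 receptor, was at 20.1 against 3.60 CPM and 33.8 against 11.5 CPM. The most abundant genes of the set were the metallothioneins. Mt1 was at 2018 against 702 CPM in WT (1.52, 1.44 to 1.61) and 2588 against 862 CPM in RARα-KO (1.59, 1.503 to 1.67), and Mt2 had ratios of 1.64 and 1.56. Mt1 was detected in 84.7% of WT granzyme-high and 48.1% of WT other cells, and in 65.8% and 35.3% after thinning.

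The 12 genes lowest in granzyme-high cells of both genotypes were Tcf7, S1pr1, Cxcl10, Slurp1, Crtam, Klf3, Tgtp1, Socs3, Ssh2, Cxcr3, Cxcr4 and Ifi27l2a. Tcf7 had 6 UMIs in WT granzyme-high cells against 197 in the others (4.47 against 64.4 CPM, -3.85, -5.31 to -2.70). In RARα-KO it had 0 against 198 UMIs, a log2 ratio of -2.999 or lower against a floor of 3 UMIs. S1pr1, the receptor that lets T cells leave tissue, was at 10.4 against 47.4 CPM in WT (-2.19, -3.09 to -1.39), and in RARα-KO had 2 against 189 UMIs (-3.52, -6.57 to -1.64). Cxcr3 was at 20.1 against 62.8 CPM and 14.5 against 74.3 CPM, and Cxcr4 at 4.47 against 39.2 CPM and 12.9 against 40.0 CPM. Both are chemokine receptors. Ifi27l2a, an interferon-induced gene, was at 128 against 382 CPM and 124 against 499 CPM. All 13 Slurp1 UMIs of the WT granzyme-high cells were in 1 cell. Under the stricter hashtag rule S1pr1 had a WT ratio of 1.03.

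**Figure D4:**
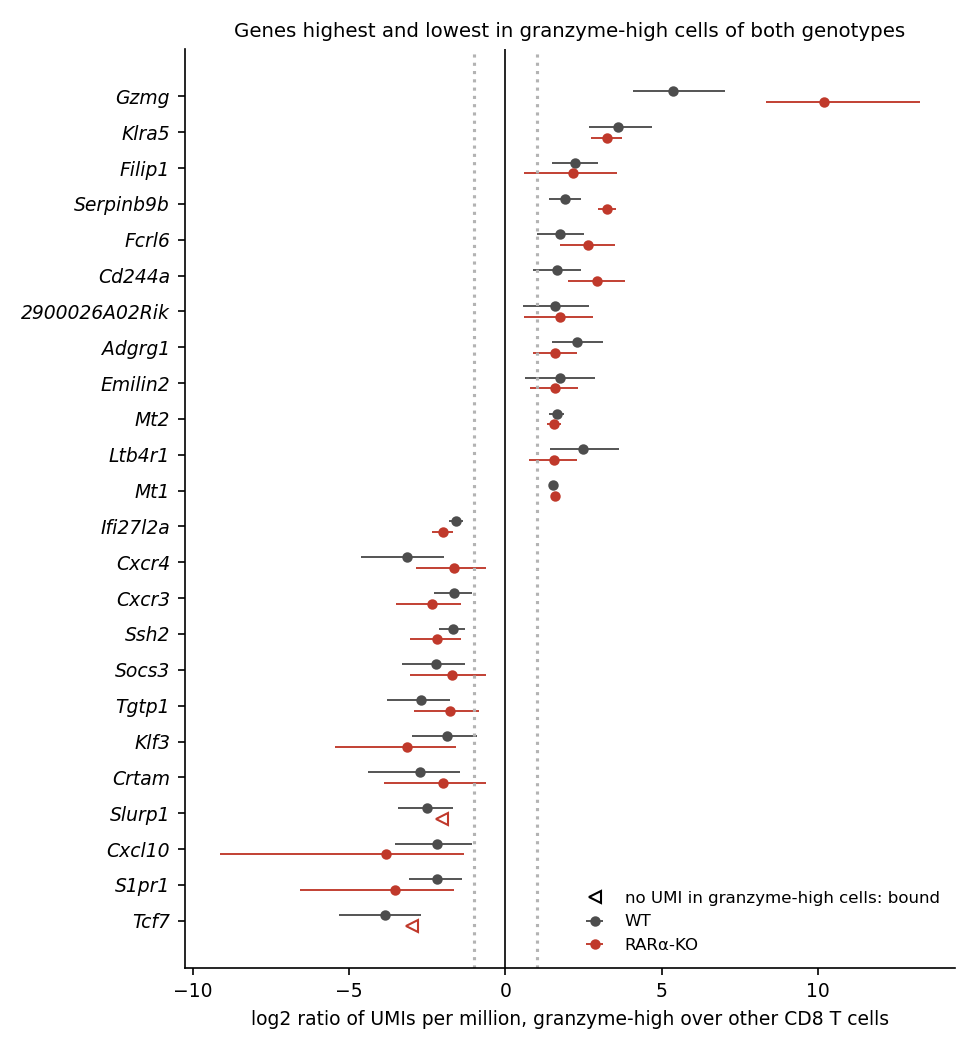
The horizontal axis gives the log2 ratio of CPM in granzyme-high over other non-cycling CD8 T cells for the 12 genes highest and 12 lowest in both WT and RARα-KO, with 95% exact binomial intervals. Open triangles mark a bound where granzyme-high cells had no UMI (Tcf7 and Slurp1 in RARα-KO). Gzmg, whose counts may include reads of the gate genes, stands farthest above 0, at 5.36 and 10.21. Tcf7 stands farthest below it in WT, at -3.85.

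Of the granzymes outside the gate, 4 of the list of 10 were abundant enough to compare, 3 of them at least 2-fold higher in WT (median 1.30), and 1 higher and 1 lower in RARα-KO (median 0.54). Gzmg is among the higher ones in both genotypes, and its counts may include reads of the gate genes. Of 15 genes compared for the pore, matrix and release of granules, 2 were at least 2-fold higher in WT (Prf1 and Ctsl) and 1 in RARα-KO (Prf1), with medians of -0.02 and 0.03. Ctsd, the protease cathepsin D, was at 555 against 335 CPM in WT and 714 against 436 CPM in RARα-KO (0.73 and 0.71). Nkg7, a granule membrane protein, was at 3399.9 against 3064 CPM in WT and 4039.5 against 4016 CPM in RARα-KO. Ctsl had a ratio of 1.01 in WT and -5.35 in RARα-KO, the latter from 1 against 337 UMIs, and 84.6% of its WT UMIs were in 1 cell. Of 7 serpins compared, 2 were at least 2-fold higher and 0 lower in WT, and 1 higher and 1 lower in RARα-KO, with medians of 0.21 and 0.28. Serpinb9b was higher in both genotypes, at 64.8 against 17.3 CPM in WT (1.90, 1.39 to 2.42) and 358 against 37.3 CPM in RARα-KO (3.26, 2.98 to 3.55). It was detected in 7.33% and 21.4% of granzyme-high cells, and after thinning in 4.11% against 0.888% of the other cells in WT and 17.1% against 2.44% in RARα-KO. Serpine2, which inhibits extracellular serine proteases, was at 252 against 88.9 CPM in WT (1.501) and 532 against 337 CPM in RARα-KO (0.66). Serpinb1a was lower in both genotypes, at 32.0 against 47.7 CPM in WT (-0.58, -1.10 to -0.08). In RARα-KO it had 2 against 255 UMIs (-3.95, -7.00 to -2.08). Serpinb9, the inhibitor of granzyme B, was at 729.7 against 638 CPM in WT and 409 against 501 CPM in RARα-KO, so its ratio differed in sign between them (0.19 and -0.29).

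Cytokines and chemokines differed in direction. Ccl5 was lower in granzyme-high cells of both genotypes, at 2451 against 5383 CPM in WT (-1.14, -1.19 to -1.08) and 6077 against 14060.6 CPM in RARα-KO (-1.21, -1.26 to -1.16). It was detected in 70.7% of WT granzyme-high and 85.7% of WT other cells, in spite of the greater depth of the former. Ifng was higher, at 169.8 against 84.3 CPM (1.01, 0.75 to 1.27) and 815 against 318 CPM (1.36, 1.21 to 1.502), but 1 cell held 32.9% of the WT and 1 cell 54.9% of the RARα-KO UMIs, and after thinning it was detected in 11.0% and 8.88% of WT cells, a difference within counting error. Within the 3 RARα-KO clonotypes above Ifng was lower in granzyme-high cells. Spp1, the gene of osteopontin, was at 181 against 23.5 CPM in WT (2.94, 2.56 to 3.34) and 249.7 against 95.6 CPM in RARα-KO (1.38, 1.11 to 1.65), and was found in 22.7% and 24.3% of granzyme-high cells against 3.89% and 5.204% of the others. After thinning the Spp1 shares were 12.3% against 2.13% in WT and 14.3% against 3.14% in RARα-KO. Over the list, 2 of 16 genes were higher and 2 lower in WT, and 5 of 13 higher and 1 lower in RARα-KO, with medians of -0.28 and 0.52. These medians depended on the setting, at 0.44 after thinning and 0.18 with clonotypes weighted equally in WT, and at 1.26 with equal weights and 0.24 without the largest clonotype in RARα-KO.

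Few inhibitory receptors were past 2-fold between granzyme-high and other cells, but several were detected in more of the granzyme-high cells. Of 16 genes compared in WT, Cd244a alone was past 2-fold, and the median was -0.05. In RARα-KO Cd244a and Cd38 were past 2-fold of 14 genes, with a median of -0.07. Pdcd1, the gene of PD-1, was at 908 against 798 CPM in WT and 512 against 405 CPM in RARα-KO, and Havcr2, the gene of TIM-3, at 223 against 132 CPM and 361 against 299 CPM. Entpd1, which encodes the ectonucleotidase CD39, was at 78.2 against 41.5 CPM and 101 against 69.1 CPM. Lag3 was at 539 against 484 CPM in WT and 636 against 675 CPM in RARα-KO. Other exhaustion genes of the list were lower in both genotypes. Nr4a3 had ratios of -0.77 (-1.06 to -0.49) in WT and -0.77 (-1.20 to -0.37) in RARα-KO, and Bhlhe40 of -0.34 and -0.37. Intervals lay above 0 for 5 genes of the list and below 0 for 4 in each genotype. After thinning, Pdcd1 was detected in 77.4% of WT granzyme-high and 60.4% of WT other cells. For Havcr2 these shares were 33.6% and 18.3%, and for Lag3 67.1% and 41.6%. The intervals of each pair did not overlap. In RARα-KO the thinned shares were 50% and 45.2% for Pdcd1, 51.4% and 35.8% for Havcr2, and 64.3% and 54.0% for Lag3. There only the Havcr2 intervals lay apart (39.2% to 63.6% and 32.6% to 39.1%). Of 13 costimulatory receptors none was past 2-fold in either genotype, and the medians were -0.36 and -0.39. Cd2 was at 347 against 499.9 CPM and 295 against 510.1 CPM.

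Genes of naive and memory cells were lower as a group. Of 14 compared, 5 were at least 2-fold lower and 1 higher in WT, and 7 lower and 0 higher in RARα-KO, with medians of -0.55 and -1.01. Besides Tcf7, S1pr1 and Klf3, Bach2, a repressor that restrains effector differentiation, was at 22.3 against 49.0 CPM in WT (-1.13) and 12.9 against 38.2 CPM in RARα-KO (-1.57). Il7r, the receptor for interleukin 7, was at 223 against 292 CPM and 126 against 245 CPM. Chemokine receptors and integrins had 4 of 16 genes at least 2-fold lower and 1 higher in each genotype, with medians of -0.57 and -0.48. Itgb7 was at 54.4 against 118 CPM and 90.2 against 180.3 CPM, and Itgb1 at 134 against 239.6 CPM and 106 against 208 CPM. Cxcr6, a receptor of tissue-resident T cells, was at 640 against 680.3 CPM in WT and 617 against 798 CPM in RARα-KO.

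Of the transcription factors, 3 of 20 genes in WT and 4 of 22 in RARα-KO were at least 2-fold lower and none was higher, with medians of -0.29 and -0.43. Irf8, which acts in effector CD8 T cells, was higher in both, at 536 against 270.0 CPM in WT (0.99, 0.84 to 1.14) and 298 against 196 CPM in RARα-KO (0.60, 0.37 to 0.83). Rora was at 164 against 311 CPM and 101 against 211 CPM, and Myc at 9.68 against 25.5 CPM and 12.9 against 33.95 CPM. Tbx21, the gene of T-bet, was at 129.6 against 112 CPM and 109.5 against 94.2 CPM. Of 19 cytokine receptors and feedback genes, Il1r2, the decoy receptor for interleukin 1, was higher in both, at 305 against 107 CPM (1.51, 1.30 to 1.72) and 116 against 57.8 CPM (1.01, 0.61 to 1.38). Pim1 was at 136 against 307 CPM and 188 against 371 CPM, and Socs3 at 7.45 against 34.7 CPM and 11.3 against 36.7 CPM.

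Interferon-stimulated genes past 2-fold were lower, and the antigen receptor response was mixed in RARα-KO. Of the interferon-stimulated genes, 3 of 12 in WT and 6 of 14 in RARα-KO were at least 2-fold lower and none was higher, with medians of -0.41 and -0.73. Igtp, an interferon-induced GTPase, was at 53.6 against 142 CPM and 83.8 against 204 CPM. For the antigen receptor response and AP-1, 4 of 18 genes were at least 2-fold lower and none higher in WT, and 3 of 21 lower and 3 higher in RARα-KO, with medians of -0.61 and -0.41. Tnfaip3, an inhibitor of NF-κB, was at 230.1 against 465 CPM and 153 against 361 CPM. Egr1 went against the list, at 113 against 65.1 CPM in WT and 393 against 179.5 CPM in RARα-KO, with 42.1% and 43.9% of its UMIs in 1 cell.

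Metabolic, stress and cell cycle genes were also counted. Of 20 glycolysis and hypoxia genes in WT none was past 2-fold, with a median of 0.33. In RARα-KO 2 of 23 were past 2-fold (Egln3 and Ndrg1), with a median of 0.07. Ndrg1 was at 85.6 against 50.02 CPM in WT and 91.8 against 41.4 CPM in RARα-KO. In serine, glycine and one-carbon metabolism Gldc was the gene past 2-fold of 13 in both genotypes, and the medians were 0.05 and 0.05. Heat shock genes had a median of -0.13 in WT, where Hspa1a (2.98) and Hspa1b (2.09) were past 2-fold, and of -0.42 in RARα-KO, where Hspb1 had 0 against 149 UMIs (-2.59 or lower against a floor of 3 UMIs). Of the cell cycle genes outside the gate, none of 19 was past 2-fold in WT (median -0.16), while Stmn1, Ube2c and Tk1 were higher of 20 in RARα-KO (median 0.24). Of the retinoid genes 4 in WT and 3 in RARα-KO were compared and none was past 2-fold. Rara was at 69.2 against 96.1 CPM in WT and 54.8 against 82.9 CPM in RARα-KO, where the counted reads need not cover the deleted part of the gene, and at 222 CPM from 9 UMIs in the 6 RARα-TG cells.

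Fcer1g, the signaling chain of Fc receptors and of NK cell receptors, was among the NK-type receptors compared. It was at 183 against 22.9 CPM in WT (3.001, 2.61 to 3.41) and 148 against 80.2 CPM in RARα-KO (0.89, 0.54 to 1.22). It was detected in 16.7% of WT and 18.6% of RARα-KO granzyme-high cells against 4.42% and 2.71% of the others, and in 13.7% and 11.4% against 2.49% and 1.97% after thinning. In the other RARα-TG CD8 cells Fcer1g was also at 183 CPM, and was found in 8.05% of cells. The cells with Fcer1g were then compared with the other granzyme-high cells, a split chosen after the values had been seen. The 25 WT cells with Fcer1g belonged to 14 clonotypes, and 18 of them to clonotypes of 10 or more cells. They had Cd8b1 at 973 CPM and Pdcd1 at 910.4 CPM, against 889.8 and 907 CPM in the 125 cells without Fcer1g. Klrb1c, the NK1.1 gene, had 3 UMIs in each of the 2 groups. Tyrobp, an adaptor of NK cell receptors, was at 45.5 against 7.26 CPM (2.65, 1.20 to 4.17), from 11 and 8 UMIs, and the NK cell receptor gene Klre1 at 203 against 149 CPM (0.45, -0.05 to 0.91). The 2 groups of WT cells differed in Gzmc (3592 against 1431 CPM), Spp1 (343 against 145 CPM) and Ccl5 (1064 against 2755 CPM). In RARα-KO the 13 cells with Fcer1g came from 12 clonotypes and had no Klrb1c UMI, with Gzmc at 3059 against 1413 CPM and Spp1 at 734 against 112 CPM. Klre1 was at 239.8 against 89.0 CPM (1.43, 0.73 to 2.12), and Tyrobp had 4 UMIs against 1. Ccl5 was at 218 CPM in these 13 cells and 7746 CPM in the other 57. Median depth differed too, at 11046 and 7041 UMIs in RARα-KO and 8757 and 8636 UMIs in WT, and its part was not tested.

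Over the list of NK-type receptors the median was 0.00 in WT and -0.32 in RARα-KO. Cd7 was lower in WT, at 15.6 against 107 CPM (-2.77, -3.48 to -2.13), and at 35.4 against 53.9 CPM in RARα-KO. Lilr4b, an inhibitory receptor, was at 38.0 against 82.7 CPM and 51.5 against 160.2 CPM.

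Markers of other cells were counted in the same cells. All 7 T cell markers were found in granzyme-high cells of both genotypes, at 7516 CPM in WT and 7462 CPM in RARα-KO, against 6990.2 and 7263 CPM in the others. Cd8a is among these markers, and the rule required it and a TCR clonotype in both kinds of cells, so this is in part a description of the rule. The defining NK cell gene Ncr1, the gamma delta receptor gene Trdc, and Csf1r of macrophages were at 0 in granzyme-high cells of all 3 genotypes. The NK list as a whole was at 371 CPM in WT and 302.8 CPM in RARα-KO, against 195 and 251 CPM in the others, with Fcer1g and Klre1 among its detected genes. Myeloid markers were at 14.1 and 45.1 CPM, against 36.6 and 78.2 CPM in the others, B cell markers at 4.47 and 0 CPM, and neutrophil markers at 0. Dendritic cell markers, of which Ccr7 is shared with T cells, were at 118 and 74.1 CPM against 426 and 154 CPM. Mast cell markers were at 16.4 and 1.61 CPM against 12.1 and 2.54 CPM, all from Kit in the granzyme-high cells. Gamma delta markers were at 5.21 and 4.83 CPM, and CD4 and regulatory T cell markers at 236 and 251 CPM. Of the latter, Cd4 was at 0 by the rule, and Foxp3 was at 0 as well. MC38 and stromal markers had 51 UMIs in WT granzyme-high cells, all in 1 cell, and 1 UMI in RARα-KO. More than 1 productive beta chain was found in 1 of 150 WT and 6 of 70 RARα-KO granzyme-high cells, against 11 of 566 and 69 of 884 other cells, shares that did not differ within a genotype beyond counting error.

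Outside the CD8 cells the 4 granzymes were rare in cells that should lack them. Of barcodes with MC38 or stromal markers and no clonotype, 3.25% had a UMI (16 of 492, 1.87% to 5.23%) at a median depth of 27624.5 UMIs, and their level was 1.34 CPM. Of barcodes with myeloid markers and no clonotype, 6.51% had one (14 of 215, 3.61% to 10.7%) at a median depth of 7767 UMIs. The other non-cycling CD8 cells had a UMI in 13.3% (11.7% to 15.0%) at a median depth of 4962 UMIs, and a level of 41.7 CPM, and CD4 T cells in 10.6% at 462 CPM. Of all UMIs of the 4 genes in the 5600 barcodes, 58.3% were in the 247 granzyme-high cells, 12.9% in cycling CD8 cells and 10.8% in 25 barcodes with Ncr1 or Klrb1c and no clonotype. These 25 barcodes stood at 31514 CPM of the 4 genes, above the 11664 CPM of the granzyme-high cells.

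Granzyme-high cells of RARα-KO were then compared with those of WT, from 70 and 150 cells. Of 7501 genes, 371 were at least 2-fold higher in RARα-KO (4.95%) and 424 at least 2-fold lower (5.65%), with a median of -0.01. These cells hold 620865 and 1342985 UMIs, and a gene with few UMIs can pass 2-fold through 1 cell. The comparison of other CD8 cells between the genotypes is given beside it.

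Gzmb, Prf1, Gzmk, Ccl3 and Ccl4 were higher in RARα-KO than in WT granzyme-high cells, while Gzma was lower (-0.48, -0.60 to -0.36). Over the lists, 0 of 15 genes of the pore, matrix and release of granules were at least 2-fold higher and 1 lower, and 7 of 16 cytokines and chemokines higher and 5 lower. Gzmb was at 9609 CPM in RARα-KO and 4922 CPM in WT (0.97), Prf1 at 1061 and 614 CPM (0.79) and Gzmk at 199.7 and 87.9 CPM (1.18). The ratios in other CD8 cells were 1.71, 1.21 and 1.70, so the 2 samples stood closer together among granzyme-high cells for these 3 genes. Ccl3 and Ccl4, inflammatory chemokines, were at 1422 against 89.4 CPM (3.99) and 2985 against 189 CPM (3.98), and the ratios in other CD8 cells were 2.83 and 3.05. One RARα-KO cell held 39.9% of the Ccl3 UMIs and 1 WT cell 68.3%. Ccl3 was detected in 21.4% of RARα-KO and 10.0% of WT granzyme-high cells, and in 20% (11.4% to 31.3%) and 4.11% (1.52% to 8.73%) after thinning. Ccl4 was detected in 40.0% and 21.3%, and in 27.1% (17.2% to 39.1%) and 8.90% (4.83% to 14.7%) after thinning, so for both the difference between the samples exceeded counting error. Between granzyme-high and other cells of RARα-KO, the thinned shares were 20% and 11.7% for Ccl3, with intervals that overlapped, and 27.1% and 26.9% for Ccl4. Within the 3 RARα-KO clonotypes above, both genes were lower in granzyme-high cells. Ccl5 was at 6077 and 2451 CPM (1.31), and its thinned shares were close at 54.3% and 56.2%.

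**Figure D5:**
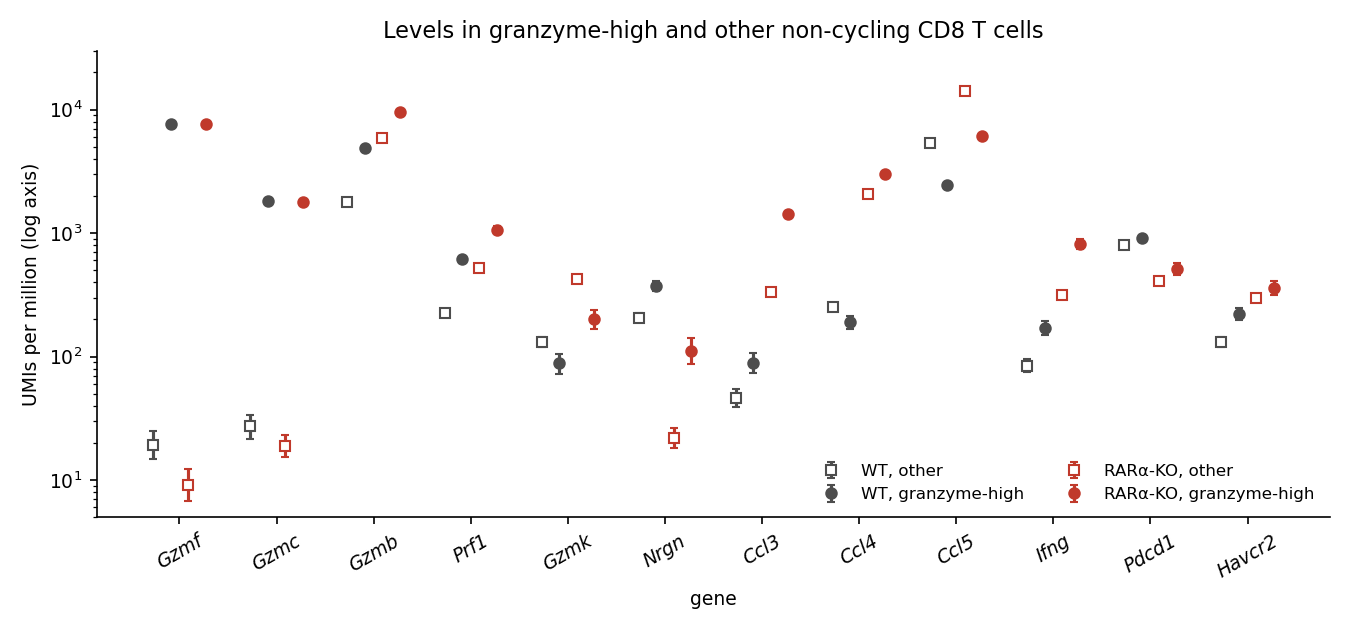
The vertical log axis gives CPM for 12 genes (horizontal axis) in WT and RARα-KO granzyme-high cells (filled circles) and other non-cycling CD8 T cells (open squares), each 1 sample, with 95% Poisson intervals. Levels are to be compared within a gene only. Summed Ccl3 and Ccl4 are highest in RARα-KO granzyme-high cells, at 1422 and 2985, while Ccl5 is lower in granzyme-high than in other cells of both genotypes. Within the 3 RARα-KO clonotypes compared, Ccl3 and Ccl4 were lower in granzyme-high than in other cells.

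Some genes of receptor signaling were among the others that stood higher in RARα-KO. Egr2 was at 43.5 against 0.745 CPM (5.87, 3.27 to 11.22), from 27 UMIs against 1, and its ratio in other CD8 cells was 1.62. Fos was at 106 against 5.96 CPM (4.16), but 90.9% of its RARα-KO UMIs were in 1 cell. Of the antigen receptor response list, 6 of 21 genes were at least 2-fold higher in RARα-KO granzyme-high cells and 1 lower, with a median of 0.25 (-0.05 to 0.55). Intervals lay above 0 for 7 genes of the list and below 0 for 4, among them Dusp1 (-1.32) and Tnfaip3 (-0.59). The rest of the 10 highest were Gm43305, Gm42031, Tmem273, H60b, Jam2 and Egfl7, each with 1 UMI in the WT cells and 7 to 53 in RARα-KO. Gm43305 and Gm42031 were far apart in the other CD8 cells as well, with 287 against 0 UMIs and 519 against 2 UMIs. Of 23 glycolysis and hypoxia genes 5 were at least 2-fold higher and none lower, with a median of 0.54, and the median in other CD8 cells was 0.60. Heat shock genes had a median of 0.50, against 0.81 in the other cells.

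Pdcd1 and Nrgn were lower in RARα-KO granzyme-high cells. Pdcd1 was at 512 against 908 CPM (-0.83) and Nrgn at 111 against 372 CPM (-1.74), and the ratios in other CD8 cells were -0.98 and -3.23. The 10 lowest genes were Penk, Ctsl, Cxcl1, Ly6c1, Bgn, Pxdc1, Csf2, Timp2, Ppic and Gng11, each with 1 UMI in the RARα-KO cells and 24 to 68 UMIs in WT. Of these, all 37 WT UMIs of Cxcl1 and of Ly6c1 and 97.3% of those of Bgn were in 1 cell, and Penk, Ctsl, Timp2 and Ppic had 64.0% or more in 1 cell. Pxdc1 and Gng11, with 13.8% and 25.0% in 1 cell, were spread more widely. Csf2, the gene of the cytokine GM-CSF, had 28 UMIs in WT against 1 (-3.69, -9.05 to -1.10), with 39.3% of the WT UMIs in 1 cell. Its ratio in other CD8 cells was -3.29.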

How the data were processed

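Tumor-infiltrating cells of the 3 genotypes were measured in 1 pooled 5′ library for genes, hashtags and TCR. The deposited values are counts of UMIs per gene and barcode, which the authors made with Cell Ranger 6.1.0 per the labels (the matrix header names version 4) on mm10 (GRCm38). The matrix holds 32285 genes, 3 hashtags and 730308 barcodes, of which 5600 had 500 or more gene UMIs, with a median of 4808. Labels also name spleen and naive CD8 T cells, against their own tumor protocol, and the protocol was followed. Genotype was taken from the top hashtag where it had 10 or more UMIs and 3 or more times the next, and 655 barcodes had none. No doublet caller was run, and more than 1 beta chain and a missing hashtag were counted instead: 8.50% of granzyme-high and 4.95% of other non-cycling CD8 cells had no clear hashtag.

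UMIs were summed per genotype and kind of cell and given as CPM, with exact 95% intervals, in Python 3.11.15 with numpy 2.4.6, scipy 1.17.1 and pandas 2.3.3. No test was run, since each genotype is 1 sample. Genes needed 0.1 or more UMIs per cell, and a log2 ratio past 1 was called. Ratios against 0 UMIs used a floor of 3 UMIs. Scripts were tested on simulated data. Clonotypes followed the deposited TCR contigs. Gene positions came from RefSeq (GRCm38.p6).

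Named were the 8 marker genes and all granzymes, up to 4 genes per list with the largest ratio of equal sign in WT and RARα-KO, the 12 highest and 12 lowest genes by the same rank, the 10 highest and 10 lowest between RARα-KO and WT, and Rara. Other genes were named after their values were seen, as the genes behind a small count or as known genes of a list. The cells, genes and lists were chosen with earlier results of these data known. Alternatives changed the gates, hashtag rule, depth, scaling and weight of clonotypes. Leaving out barcodes with 5 or more UMIs of other cells' markers, or with 20000 or more UMIs, was added after seeing the data. Some items are not reported here.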

Additional observations from a re-analysis of the deposited data

Results flagged for a closer look

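Some genes had ratios of granzyme-high over other CD8 cells of opposite sign in WT and RARα-KO, and these differences were not tested. Egr2 was at -3.13 in WT, from 1 UMI, and 1.11 in RARα-KO. Fos was at -1.51 and 1.67, with 90.9% of the RARα-KO UMIs in 1 cell. Ctsl was at 1.01 and -5.35, Cxcl1 at 4.81 and -5.08, and Bgn at 1.81 and -4.41. Each of these 3 had 1 UMI in RARα-KO granzyme-high cells, and 84.6%, 100% and 97.3% of the WT UMIs were in 1 cell. In the other RARα-KO CD8 cells they had 337, 279 and 176 UMIs. MC38 and stromal markers stood at 93.7 CPM in those cells, and a link to these genes was not tested.

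Outside the granzyme-high cells, 5 or more UMIs of the 4 granzymes were found in 67 of 182 cycling CD8 cells, 28 of 717 CD4 T cells, and 11 of 25 barcodes with Ncr1 or Klrb1c and no clonotype. No barcode with MC38 or stromal markers and no clonotype reached 5. Of the 215 barcodes with myeloid markers and no clonotype, 3 did, all from RARα-KO.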

How the results depend on the processing

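Over all alternatives, 115 counts and shares kept close to the reported value and 41 moved. With 3 or more granzyme UMIs the share was 24.7% in WT and 9.85% in RARα-KO, with 10 or more it was 5.35% (RARα-KO) and 2.15% (RARα-TG), and with 20 or more 15.4%, 4.19% and 1.08% for the 3 genotypes. Thinning gave 15.7%, 4.83% and 1.11%. The WT share was 24.2% with cycling cells kept, 30.6% under the stricter hashtag rule (4.16 times RARα-KO) and 11.7% with clonotypes weighted equally (1.81 times). Cells in clonotypes of 10 or more were 34.6% and 15.3% of WT granzyme-high and other cells and 67.7% of RARα-KO other cells under the stricter hashtag rule, and 52.3% and 67.5% of WT and RARα-KO other cells without the largest clonotype. Under the stricter hashtag rule clonotype size was recounted over fewer cells, which can only lower it.

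In WT, genes past 2-fold in the higher direction numbered 63 after thinning, 434 with equal weights, 23 at 0.5 UMIs per cell and 426 under the stricter hashtag rule, and lower genes 472 with equal weights, 27 at 0.5 UMIs and 394 under that rule. In RARα-KO, with 20 granzyme UMIs, equal weights and 0.5 UMIs, higher genes numbered 431, 450 and 33 and lower genes 538, 551 and 44. Between RARα-KO and WT, higher genes numbered 567, 612 and 65 in these settings, and lower genes 650 with 20 granzyme UMIs, 233 after thinning, 43 at 0.5 UMIs and 749 under the stricter hashtag rule. Lists with a median above 0 in both genotypes were 4, and 8 with equal weights. Of the list medians over all alternatives 51 moved by more than their counting interval and 434 did not. Of the 51, those between granzyme-high and other cells that came to lie on the other side of 0 were, after thinning, cytokines (0.44) and heat shock (0.020) in WT and transcription factors (0.16) in RARα-KO; with equal weights, transcription factors in WT (0.13) and inhibitory receptors (0.39) and NK-type receptors (0.017) in RARα-KO; and interferon-stimulated genes in WT under the stricter hashtag rule (0.051).

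Reversed were S1pr1 in WT (1.03 under the stricter hashtag rule) and, with equal weights, Ctsl in WT (-1.83) and Cxcr4 (-0.21), Ly6c1 (0.15) and Bgn (0.022) between RARα-KO and WT. The cause was not tested. Of the ratios of named genes past 1, 46 of 46 stayed so at 0.5 UMIs per cell, 101 of 103 with the other CPM scaling, 97 of 102 without the largest clonotype, 95 of 103 with 20 granzyme UMIs, 93 of 103 with equal weights, 48 of 58 after thinning, 81 of 99 under the stricter hashtag rule, 90 of 92 without barcodes holding other cells' transcripts and 91 of 94 without the deepest. No paired analysis was possible because each genotype is 1 sample. Depth limits genes with few UMIs, above all in the 70 RARα-KO and 6 RARα-TG cells.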
